A study of Mus musculus with 6 samples.

Results

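The iron-handling genes described here are the STEAP metalloreductases Steap1, Steap2, Steap3 and Steap4, the metal transporters Slc11a1 and Slc11a2, the transferrin receptor Tfrc, the ferritin chains Fth1 and Ftl1, and the heme oxygenase Hmox1. The genes were chosen by symbol, and all 10 had a row among the 14701 genes of the tables. They were measured by RNA sequencing in IEC 4.1, a mouse line that the labels call intestinal epithelium, in 3 control libraries (replicates 2, 3 and 4) and in 3 libraries of cells exposed for 6 h to interferon-gamma (10 ng/ml; replicates 1, 2 and 4). The comparison asks how transcript levels of iron genes differ after this exposure. The labels do not say whether the replicates were separate cultures, so p-values measure only the spread between these libraries, which may be technical.

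Depth ran from 17490689 to 18678543 estimated counts per library. Irf1, an early interferon response gene, was 11.9-fold higher in the treated libraries, as a check of the labels. The epithelial label was not matched by its defining markers: 7 of 12 epithelial markers had a row, their summed level was 0.412 to 0.906 CPM (counts scaled to effective library size) per library, and Cdh1, Vil1 and Cdx1 had at most 1 count in any library. Of 10 mesenchymal markers, 9 had a row and summed to 5544 to 5920 CPM. Vim was the highest, at 2386 ± 10.9 CPM in controls and 2946 ± 63.1 CPM in treated libraries (mean ± SD, n = 3). Lum had at most 4 counts in any library. Of the 8 tested, 2 rose (Vim and Dcn) and 5 fell (Col1a1, Col1a2, Col3a1, Pdgfra and Pdgfrb). Dcn, a matrix proteoglycan, had log2 0.87 (adjusted p = 1.92e-06), and the growth factor receptors Pdgfra and Pdgfrb had log2 -0.65 (1.23e-07) and -0.59 (5.11e-08). Their part in the results was not tested. In bulk RNA, a change in the number of cells of a type and a change in RNA per cell cannot be told apart.

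As background, iron enters most cells bound to transferrin through the transferrin receptor, is freed in endosomes, is reduced from ferric to ferrous iron by a STEAP protein and leaves the endosome through the transporter encoded by Slc11a2. Iron not used at once is stored in the ferritin shell, built of heavy and light chains. Iron regulatory proteins bind hairpins called iron-responsive elements when iron is scarce, which protects the transferrin receptor mRNA from decay and blocks translation of ferritin mRNA, so that ferritin protein need not follow its transcript. Interferon-gamma is known to alter iron handling in macrophages, where withholding iron limits intracellular microbes.

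With interferon-gamma, 5 of the 10 genes rose (Steap1, Steap2, Steap4, Slc11a2 and Hmox1), 2 fell (Tfrc and Ftl1) and 3 did not pass the test (Steap3, Slc11a1 and Fth1). A gene was called with edgeR's quasi-likelihood test at a Benjamini-Hochberg adjusted p under 0.05 over all 11423 genes tested, of which 19.9% rose, 18.1% fell and 38.1% were called in either direction. The median log2 fold change was 0.28 over the 10 genes and 0.01 over all genes tested. Because the 10 genes were chosen with earlier results of these data known, the shares over all genes are a description. They are no test of the list. Steap1, Steap2 and Steap4 rose at least 2-fold, which 4.03% of all genes tested did. In CPM, every treated library lay above every control for 5 of the genes, as for 24.7% of all genes tested, and below every control for 3, as for 23.3%. All 10 passed the filter on low counts, Steap4 only through its treated libraries, so its difference was a condition of being tested. Of all calls 52.4% were rises, and 38.6% or 34.5% were after upper-quartile or total-count scaling.

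**Figure D1:**
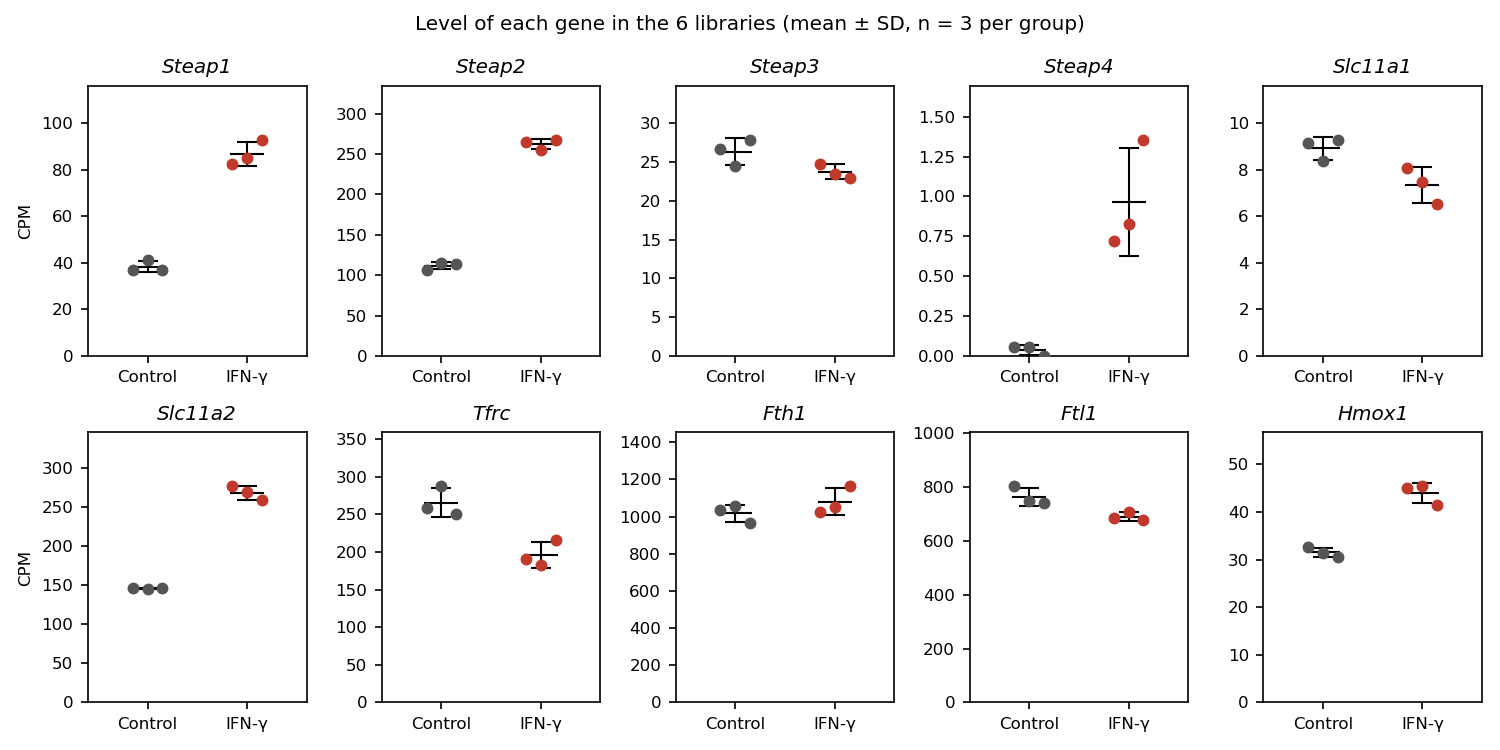
Level of the 10 genes in CPM (counts scaled to effective library size, vertical axis from 0, a separate scale per gene) in control and interferon-gamma libraries, with each point 1 library and bars the mean ± SD (n = 3 per group). Treated points lie above all controls for Steap1, Steap2, Steap4, Slc11a2 and Hmox1, below them for Slc11a1, Tfrc and Ftl1, and among them for Steap3 and Fth1.

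Among the reductases, Steap1 and Steap2 rose by nearly the same factor. Steap1 (NCBI Gene 70358, GRCm38.p6, chr5:5736322-5749317, minus strand) was at 37.2, 41.1 and 36.9 CPM in the controls and at 82.8, 85.0 and 92.9 CPM in the treated libraries. The lowest treated library was far above the highest control, with no overlap. The log2 fold change was 1.18 ± 0.071 (SE over replicates; n = 3 in each group; adjusted p = 2.26e-12), a 2.26-fold rise. Steap1 encodes a family member that lacks the NADPH-binding reductase domain of its relatives.

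Steap2 (NCBI Gene 74051, chr5:5664829-5694649, minus strand), a full metalloreductase of endosomes and the Golgi, was at 106.6, 115.1 and 113.7 CPM in the controls. Its treated libraries held 265.4, 255.0 and 267.5 CPM, so the groups did not overlap. This was a log2 fold change of 1.23 ± 0.04 (n = 3 per group, adjusted p = 2.22e-14), a 2.35-fold rise. The ratio of Steap1 to Steap2, taken within each library on TPM (which the authors scaled for transcript length and depth), was 2.65 ± 0.0925 in controls and 2.58 ± 0.144 in treated libraries (mean ± SD, n = 3), and these ranges overlapped. An antisense or overlapping gene cannot be told apart from its partner where strand was not used in counting, which the sources used here do not state. Steap1 overlaps Gm46900, which had 1 count in all controls together and 9 in the treated libraries, and Steap2 overlaps the long noncoding Gm40262, which was not analysed here.

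Steap4 (NCBI Gene 117167, chr5:7960472-7982213, plus strand), a plasma membrane and endosomal reductase studied mainly in fat and inflamed tissue, came from near silence. It had 1, 1 and 0 counts in the controls and 13, 15 and 23 in the treated libraries. Every treated library was above every control, yet the gene stayed the least abundant of the 10 at 0.513 ± 0.171 TPM (mean ± SD, n = 3). The depth-scaled ratio of 51 treated to 2 control counts was 27.1, with an exact 95% interval of 7.14 to 230.0 that covers counting error only (edgeR adjusted p = 4.93e-06). The size of the change is therefore poorly fixed at this depth. The gene was left out by the filter of at least 1 CPM in 3 libraries.

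Steap3 (NCBI Gene 68428, chr1:120226414-120271081, minus strand), the main endosomal ferrireductase of red cell precursors, did not share this rise. Its controls held 26.7, 24.5 and 27.85 CPM and its treated libraries 24.8, 23.4 and 23.0 CPM. Treated replicate 1 lay just above control replicate 3, so the groups overlapped, although on TPM the treated libraries (13.6 to 15.45) were all below the controls (16.33 to 18.48). Its log2 fold change was -0.15 ± 0.064 (n = 3 per group, adjusted p = 0.11). It passed the threshold without control replicate 3 (log2 fold change -0.21, adjusted p = 0.0467), and with scaling by total counts (adjusted p = 0.0193) or by the upper quartile (0.0304).

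Summed over the 4 STEAP genes, the TPM went from 102.3, 116.8 and 110.1 in the controls to 210.8, 201.4 and 218.1 in the treated libraries. Steap1 was the largest contributor to this sum in both groups. Within libraries, the TPM of Steap1 was 3.93 ± 0.486 times that of Steap3 in controls and 9.87 ± 1.01 times in treated libraries (mean ± SD, n = 3), so the makeup of the family shifted as well as its total.

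Since Steap1 and Steap2 are close neighbours that rose by nearly the same factor, the 250 bases before a RefSeq start of each are shown, taken at the outermost start that the promoter table lists, 5′ to 3′ on the gene's own strand (RefSeq, GRCm38.p6), with matches to the motifs searched in capitals. The letters searched on both strands were GAAA, any 2 bases and GAAA again (the interferon-stimulated response element) and TGACNNNGC (the core of the antioxidant response element). A match is a string of letters and no evidence of binding.
Steap1, chr5:5749318-5749567, minus strand: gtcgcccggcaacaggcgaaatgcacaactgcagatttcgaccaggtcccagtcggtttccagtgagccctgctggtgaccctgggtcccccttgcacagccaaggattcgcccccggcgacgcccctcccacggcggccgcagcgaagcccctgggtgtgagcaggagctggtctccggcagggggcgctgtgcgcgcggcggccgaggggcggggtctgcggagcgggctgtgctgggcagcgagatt
Steap2, chr5:5694569-5694818, minus strand: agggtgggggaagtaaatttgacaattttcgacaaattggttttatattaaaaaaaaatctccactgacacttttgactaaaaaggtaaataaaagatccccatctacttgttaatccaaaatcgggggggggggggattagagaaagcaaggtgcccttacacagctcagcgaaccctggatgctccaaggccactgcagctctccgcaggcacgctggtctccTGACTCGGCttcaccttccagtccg

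For Steap2 that start is an inner one, since the annotated gene reaches further upstream, to 5694649, and the window lies partly within the gene. The window holds an antioxidant core, TGACTCGGC, 25 to 17 bases before this inner start and inside the annotated gene (chr5:5694585-5694593), a motif held by 10.2% of the 32851 RefSeq promoter windows of this length. The Steap1 window held neither motif. No window of any member held the interferon-stimulated element, which 2.98% of windows do. The table gave windows for 8 members, and those of Steap3, Steap4, Slc11a1, Tfrc, Fth1 and Ftl1 held no match to either motif. Steap2 had 3 windows, and only the window shown held a match.

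Steap2 and Steap1 lie 41672 bases apart, and Steap4 lies 2211154 bases further along chromosome 5. The gene on the other side of Steap2, Cfap69, lies 596 bases away, beyond the downstream end of the minus-strand Steap2. Cfap69 is a cilium and sperm flagellum gene named here after its values were seen. Whether some of its reads stem from Steap2 was not tested. It was at 10.5, 11.5 and 10.55 CPM in the controls and at 22.4, 24.5 and 21.6 CPM in the treated libraries. These groups did not overlap, and the log2 fold change of Cfap69 was 1.07 ± 0.069 (n = 3 per group, adjusted p = 1.36e-09), close in size to those of Steap2 and Steap1. Beyond it, Gtpbp10 had log2 -0.01 (adjusted p = 0.982), and on the far side of Steap4, Sri had log2 0.01 (adjusted p = 0.923) and Dbf4 log2 -0.09 (adjusted p = 0.256). The tested genes from Cfap69 to Steap4 were only Cfap69 and the members Steap2, Steap1 and Steap4, and each rose, as did 19.9% of all genes tested. Steap4 was tested only through its treated libraries, and only protein-coding neighbours were looked at. The tested genes on either side of that stretch did not pass the test. Whether the stretch responds as a unit was not tested. Zfp804b and Tex47, which lie between Steap1 and Steap4, and Gm8773, which lies between Gtpbp10 and Cfap69, were not analysed here.

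**Figure D2:**
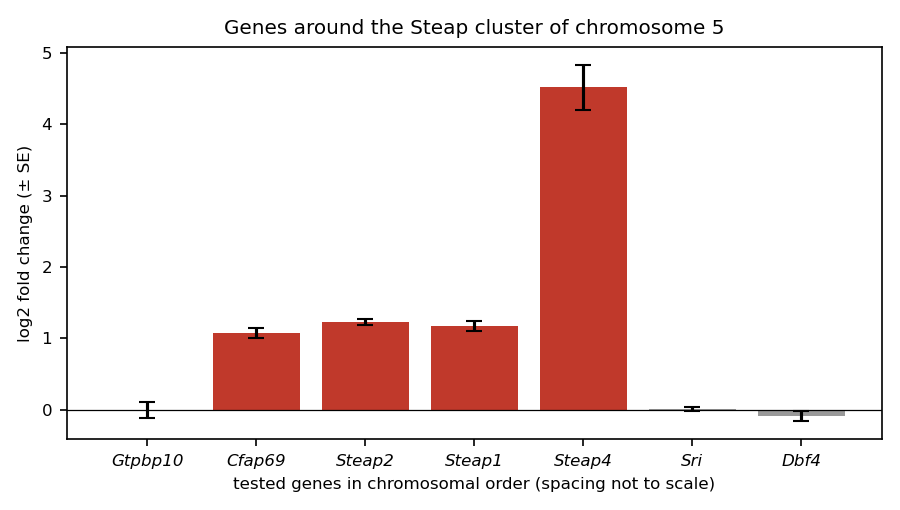
Log2 fold change (vertical axis, interferon-gamma over control, bars ± SE between replicates, n = 3 per group) of the tested genes around the Steap genes of chromosome 5, in chromosomal order and with spacing not to scale. Cfap69, Steap2, Steap1 and Steap4 are well above 0, and Gtpbp10, Sri and Dbf4 are near 0. The bar of Steap4, which had 2 control counts, can be too small.

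Of the transporters, Slc11a2 rose and its relative Slc11a1 did not. Slc11a2 (NCBI Gene 18174, chr15:100387898-100424209, minus strand) encodes DMT1, the carrier of ferrous iron across the enterocyte brush border and out of endosomes. It was at 146.8, 145.2 and 146.3 CPM in the controls and at 276.1, 269.0 and 258.8 CPM in the treated libraries. The controls were nearly identical and the groups far apart, with a log2 fold change of 0.88 ± 0.027 (n = 3 per group, adjusted p = 4.81e-12), a 1.83-fold rise. Slc11a2 is made as transcripts with and without an iron-responsive element, and gene counts do not separate them. It overlaps the long noncoding Gm5475, which was not analysed here.

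Slc11a1 (NCBI Gene 18173, chr1:74375014-74386057, plus strand) encodes NRAMP1, which moves divalent metals out of the phagosome of macrophages. It was at 9.15, 8.365 and 9.285 CPM in the controls and at 8.065, 7.49 and 6.53 CPM in the treated libraries. All treated libraries were below all controls, by a small margin between treated replicate 1 and control replicate 3. The log2 fold change was -0.28 ± 0.099 (n = 3 per group, adjusted p = 0.0543), which missed the threshold, and 6 of 14 alternative analyses called it lower, among them those without control replicate 3 (log2 fold change -0.33, adjusted p = 0.0413) and without treated replicate 1 (-0.36, 0.0326). Of 14 macrophage markers, 8 had a row. Their summed level was 23.7 to 26.9 CPM in controls and 21.25 to 22.5 CPM in treated libraries, most of it Cd14, while Ptprc, Spi1 and Laptm5 had at most 1 count in any library.

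Tfrc (NCBI Gene 22042, chr16:32608896-32632794, plus strand), which brings in iron-loaded transferrin, fell. Its controls held 258.2, 286.9 and 250.4 CPM and its treated libraries 189.9, 182.4 and 215.3 CPM. The highest treated library, replicate 4, was still below the lowest control. This gave a log2 fold change of -0.44 ± 0.093 (n = 3 per group, adjusted p = 9.77e-06), a 1.35-fold fall. On CPM, receptor and transporter thus moved in opposite directions. A ratio within each library needs no scaling between libraries, and shows only how one changed relative to the other. The TPM of Slc11a2 over that of Tfrc was 0.764, 0.684 and 0.790 in the controls and 1.97, 1.99 and 1.61 in the treated libraries, with no overlap.

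The ferritin chains were the most abundant of the set. Fth1 (NCBI Gene 14319, chr19:9980600-9985111, plus strand), the heavy chain that oxidizes iron for storage, was at 1033, 1056 and 966.5 CPM in the controls and at 1026, 1050 and 1162 CPM in the treated libraries. The groups overlapped, and the log2 fold change was 0.08 ± 0.067 (n = 3 per group, adjusted p = 0.256). Ftl1 (NCBI Gene 14325, chr7:45457944-45459886, minus strand), the light chain that favours mineral formation, was at 802.1, 746.9 and 740.8 CPM in the controls and at 683.9, 708.1 and 677.9 CPM in the treated libraries. All treated libraries were below all controls, but by less than the spread among controls for treated replicate 2. The log2 fold change was -0.15 ± 0.041 (n = 3 per group, adjusted p = 0.0273), and without control replicate 2 the call was lost (log2 fold change -0.11, adjusted p = 0.102).

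Ftl1 had counts that were not whole numbers in all 6 libraries, as when reads are divided between near-identical copies, so its value is less certain than those of the other members, whose counts were whole. The ratio of Fth1 to Ftl1 on TPM was 1.34, 1.47 and 1.36 in the controls and 1.56, 1.55 and 1.79 in the treated libraries. The treated ratios were all higher than the control ratios. The ratio of Tfrc to Fth1 on TPM was 0.0372 ± 0.00189 in controls and 0.0259 ± 0.00102 in treated libraries (mean ± SD, n = 3), also without overlap.

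Tfrc, Fth1 and Ftl1 are the members in which a script found canonical iron-responsive elements, and these are shown because the elements sit on opposite ends of the mRNAs. The pattern was C, 5 bases, CAGTGN and 5 bases that pair with the first 5 (G-T pairs allowed), 17 bases in all on the mRNA strand only, and it was searched in GENCODE M21 transcripts (GRCm38) with the loop in capitals.
Tfrc 3′ UTR, chr16:32631225-32631241: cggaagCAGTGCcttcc
Tfrc 3′ UTR, chr16:32631604-32631620: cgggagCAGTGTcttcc
Tfrc 3′ UTR, chr16:32631669-32631685: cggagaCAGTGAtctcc
Tfrc 3′ UTR, chr16:32631716-32631732: cgggaaCAGTGTttccc
Fth1 5′ UTR, chr19:9982738-9982754: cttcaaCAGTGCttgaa
Ftl1 5′ UTR, chr7:45459785-45459801: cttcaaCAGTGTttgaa

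The heavy and light chains carry the same stem and differ only in the last base of the loop. Of 21875 protein-coding genes searched, 155 (0.709%) held the pattern in a UTR. No match in the other 7 members says only that these letters are not in the transcripts searched. Neither mRNA of the iron regulatory proteins passed the test. Ireb2 had log2 -0.01 (adjusted p = 0.912). Aco1 had log2 -0.13 (adjusted p = 0.0818) and was called lower when scaled by total counts (adjusted p = 0.00828) or by the upper quartile (0.014). RNA levels do not show the binding activity of these proteins.

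Hmox1 (NCBI Gene 15368, chr8:75093618-75100593, plus strand), which breaks heme into iron, biliverdin and carbon monoxide, was at 32.6, 31.4 and 30.5 CPM in the controls. Its treated libraries held 45, 45.4 and 41.5 CPM, all above the controls. Its log2 fold change was 0.48 ± 0.049 (n = 3 per group, adjusted p = 3.14e-06), a 1.40-fold rise. Its constitutive relative Hmox2 was at 47.9 ± 1.83 and 52.9 ± 1.74 CPM (mean ± SD, n = 3; log2 0.14, adjusted p = 0.0635).

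Compared per transcript length, the order of the 10 genes changed in the middle and not at the ends. In controls it was Fth1 (2516 ± 114 TPM, mean ± SD, n = 3), Ftl1 (1807 ± 23.2), Tfrc (93.7 ± 8.83), Slc11a2 (69.6 ± 2.45), Steap1 (67.2 ± 5.45), Hmox1 (39.8 ± 0.594), Steap2 (25.4 ± 2.17), Steap3 (17.2 ± 1.15), Slc11a1 (7.25 ± 0.387) and Steap4 (0.02 ± 0.0173). Slc11a2 and Steap1 were the only neighbours in that order whose libraries overlapped. In treated libraries Steap1 (140.7 ± 7.05 TPM) and then Slc11a2 (118.1 ± 7.17) followed the ferritin chains, above Tfrc (64.0 ± 5.5). Steap2 (54.6 ± 2.71 TPM) reached the level of Hmox1 (51.45 ± 3.19), and these were the only neighbours with overlapping libraries there. Fth1 ranked 59th in control TPM among all 14701 genes and 61st in treated TPM.

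**Figure D3:**
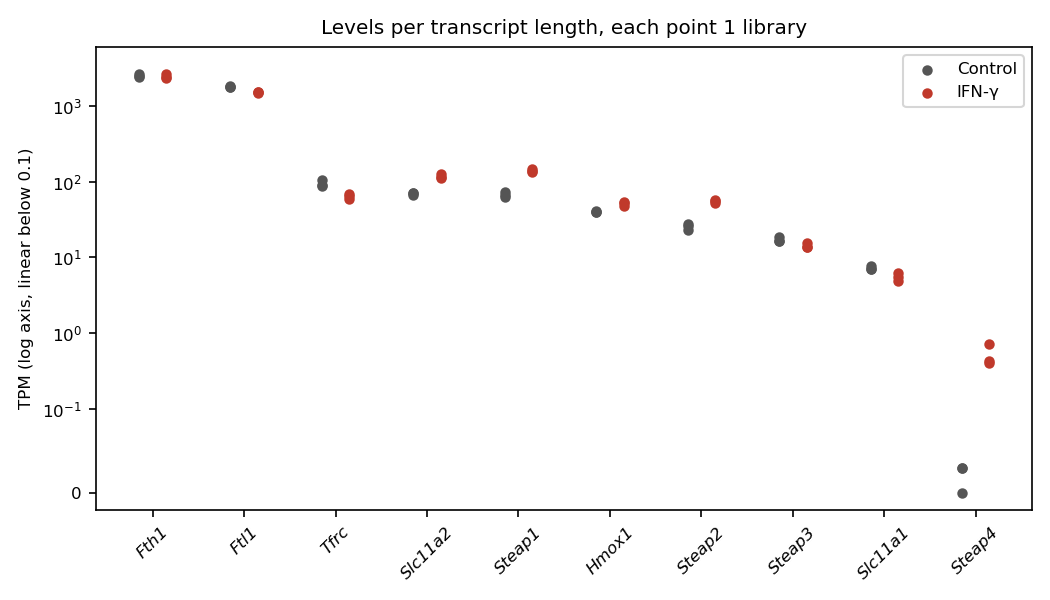
TPM of the 10 genes (vertical log axis, linear below 0.1), each point 1 library, ordered by the control mean. The ferritin chains stand above all others in both groups, Steap1 and Slc11a2 pass Tfrc in the treated libraries, and Steap4 is lowest.

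Of 16 further iron transport genes, 13 had a row and 6 were tested, of which 3 rose and 2 fell, with a median log2 fold change of 0.06, and over all genes tested 38.1% were called in either direction. Lcn2, which encodes the siderophore-binding lipocalin that keeps iron from bacteria, rose from 2.18, 2.24 and 2.32 CPM to 7.01, 6.33 and 6.475 CPM (log2 1.55 ± 0.05, n = 3 per group, adjusted p = 1.04e-08). Cp, which encodes the ferroxidase ceruloplasmin, rose from 29.3, 36.2 and 33.8 CPM to 78.4, 67.4 and 73.0 CPM (log2 1.14 ± 0.109, adjusted p = 5.62e-11). In both genes every treated library was well above every control.

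The mitochondrial iron importer Slc25a28 rose (log2 0.29, adjusted p = 0.00229), while its relative Slc25a37, named after its values were seen, fell (log2 -0.21, adjusted p = 0.00779). The Slc25a37 call was lost without control replicate 4 (log2 fold change -0.17, adjusted p = 0.0563). Slc39a14, a plasma membrane importer of iron and zinc, went down from 119.0 ± 2.48 to 99.5 ± 1.21 CPM (mean ± SD, n = 3; log2 -0.26 ± 0.02, adjusted p = 0.000299). The exporter ferroportin, Slc40a1, was near the floor with 11, 24 and 19 counts in controls and 13, 16 and 16 in treated libraries (log2 -0.17, adjusted p = 0.701), and its sign turned without control replicate 3 (log2 0.08, adjusted p = 0.89). The hormone gene Hamp was not analysed here.

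Of 15 iron storage and regulation genes, 7 were tested, of which 2 rose and 1 fell, with a median log2 fold change of -0.01. The share called in either direction over all genes tested was 38.1%. Fbxl5, whose product senses iron and marks iron regulatory protein 2 for degradation, rose from 48.3, 50.5 and 48.85 CPM to 121.7, 120.6 and 122.6 CPM. Libraries within each group were almost alike, and the log2 fold change was 1.30 ± 0.021 (n = 3 per group, adjusted p = 1.25e-14), the largest of this list. Hfe, the hemochromatosis gene, a few of whose reads are shared, rose from 1.56 ± 0.141 to 2.22 ± 0.046 CPM (mean ± SD, n = 3; log2 0.51, adjusted p = 0.0428). The Hfe call was lost without any one of the 6 libraries (adjusted p = 0.0621 to 0.142) and with DESeq2 (adjusted p = 0.189). Pcbp1, an iron chaperone that loads ferritin, fell from 356.3 ± 12.5 to 314.5 ± 7.64 CPM (log2 -0.18, edgeR adjusted p = 0.00671). Ncoa4, the receptor for ferritin breakdown, had log2 -0.06 (adjusted p = 0.376) and was called lower on total counts (adjusted p = 0.0442).

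Among 16 tested heme genes, 3 rose and 4 fell, with a median log2 fold change of 0.06. Over all genes tested, 19.9% rose, 18.1% fell and 38.1% were called in either direction. Alas1, the first and rate-limiting enzyme of heme synthesis in most cells, rose from 37.3 ± 2.19 to 47.7 ± 1.52 CPM (mean ± SD, n = 3; log2 0.35, adjusted p = 0.000117). Bach1, a heme-binding repressor of Hmox1, rose from 32.9 ± 0.689 to 41.8 ± 0.576 CPM (log2 0.34, adjusted p = 0.000102). Por, which passes electrons to heme oxygenase and cytochromes P450, fell from 209.8 ± 4.64 to 142.9 ± 7.16 CPM (log2 -0.55 ± 0.046, adjusted p = 1.98e-08). Named after their values were seen, the later synthesis enzyme Cpox rose (log2 0.23), and the synthesis enzyme Alad (log2 -0.20), the heme exporter Flvcr1 (log2 -0.29) and the endosomal heme transporter Slc48a1 (log2 -0.34) fell. Fech, which inserts iron into heme, had log2 0.01 (adjusted p = 0.878), with a negative sign on total counts and after upper-quartile scaling, and Blvrb, a biliverdin reductase, had log2 0.18 (adjusted p = 0.162) and was called higher without control replicate 2 (log2 0.28, adjusted p = 0.0322).

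**Figure D4:**
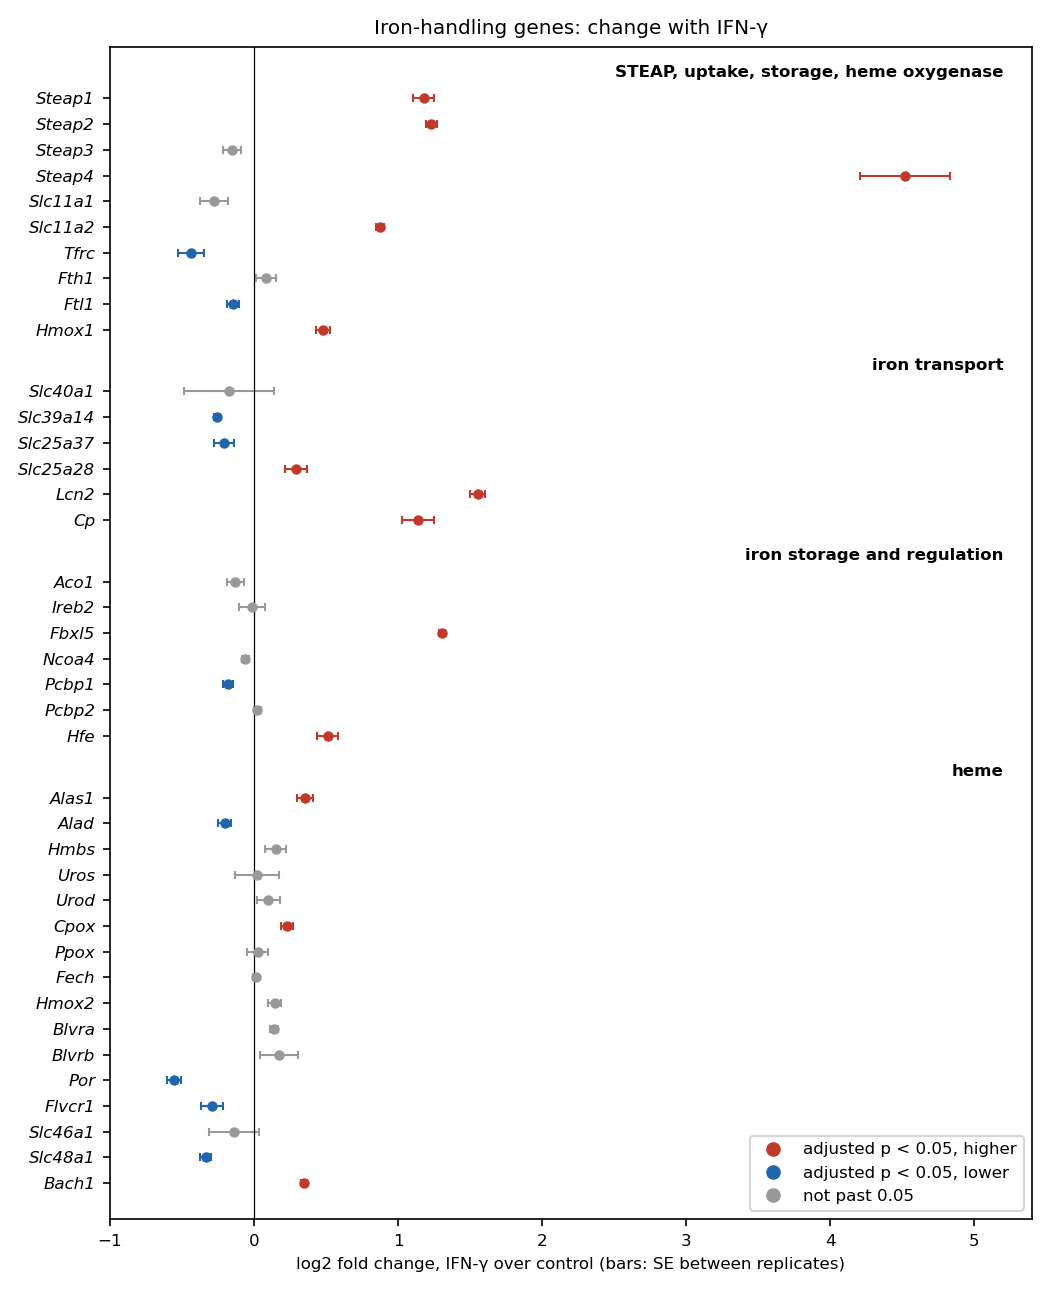
Log2 fold change (horizontal axis, interferon-gamma over control, bars ± SE between replicates, n = 3 per group) of the 10 genes and of the tested iron transport, iron storage and regulation, and heme genes, coloured by the edgeR call. Steap4, Lcn2, Fbxl5, Steap2, Steap1 and Cp lie above 1, and Por and Tfrc are the lowest of those that fell. The bar of Steap4, which had 2 control counts, can be too small.

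Of 20 tested genes that build iron-sulfur clusters, 0 rose and 1 fell, with a median log2 fold change of -0.04, beside 19.9% and 18.1% over all genes tested. At an unadjusted p under 0.05 edgeR had 1 higher and 2 lower, and DESeq2 and limma-voom each called 0 higher and 1 lower. Among all 11423 genes, DESeq2 called 1931 higher and 1823 lower, and limma-voom 2263 and 2055. The 1 that fell was Glrx5, a glutaredoxin of cluster transfer (log2 -0.19, adjusted p = 0.0345), whose libraries overlapped between groups and whose call was lost without control replicate 2 (-0.13, 0.167) and without treated replicate 1 (-0.17, 0.0933) or 4 (-0.16, 0.0793).

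Hmox1, Fth1 and Ftl1 are also targets of the stress factor NRF2, and 13 genes of that factor's pathway were all tested. Of these, 2 rose and 3 fell, with a median log2 fold change of 0.00, beside 19.9% that rose and 18.1% that fell over all genes tested. Gclm, the modifier subunit of glutathione synthesis, rose from 75.8 ± 2.89 to 133.6 ± 2.73 CPM (mean ± SD, n = 3; log2 0.82, adjusted p = 4.09e-11), while the catalytic subunit Gclc fell from 55.2 ± 2.3 to 42.5 ± 1.8 CPM (log2 -0.38 ± 0.05, adjusted p = 3.88e-05). Srxn1, a sulfiredoxin gene, fell from 63.8 ± 2.87 to 48.4 ± 1.42 CPM (log2 -0.40, edgeR adjusted p = 1.25e-05), and Nfe2l2, which encodes NRF2, had log2 0.06 (adjusted p = 0.423), with a negative sign on total counts (-0.02). Named after their values were seen, the NRF2 inhibitor Keap1 rose (log2 0.28) and the small MAF partner Mafg fell (log2 -0.23), the latter call being lost without control replicate 4 (-0.17, adjusted p = 0.0544).

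Within that list the cystine transporter Slc7a11, named after its values were seen, set treated replicate 1 apart: it held 16.7 CPM there against 7.38 and 7.48 CPM in treated replicates 2 and 4 and 10.7 to 11.3 CPM in controls. Without that library Slc7a11 had log2 -0.58 (adjusted p = 0.000379) and 5 genes of the list fell in place of 3. The members that rose did so as well without it, Hmox1 by 0.45 on the log2 scale (adjusted p = 2.83e-05), Steap1 by 1.20, Steap2 by 1.21 and Slc11a2 by 0.84. Steap4 had log2 4.68 there, but it was tested only through its treated libraries, so its kept rise adds no support.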

How the data were processed

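The submitters mapped and counted the reads. Per the submitters' processing notes, HISAT, HISAT2, mm10 and GRCm38.p6 were involved, in roles those notes do not assign; the counting program was not given in the sources used here. The deposited counts are estimated counts, and 6.8% to 7.37% of values in a library were not whole. TPM values, deposited beside them per the file headers, were used to compare levels between genes, and deposited FPKM values entered no analysis.

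After rounding, genes were filtered with filterByExpr (minimum count 10), scaled by TMM and compared by the quasi-likelihood test of edgeR 4.0.16 under R 4.3.3 (glmQLFit with robust=TRUE, glmQLFTest) over 11423 genes, with Benjamini-Hochberg adjustment. CPM are per effective library size. Standard errors came from the replicates' log2 CPM (prior count 2) and can be too small for low counts. The procedure was also run on simulated counts, with the same spread set for every gene and changes only in well-counted genes. That run says nothing about low-count genes such as Steap4.

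The members and gene lists were chosen with earlier results of these data known. Named genes are all members, 12 key iron genes and Irf1, up to 3 called genes of largest change per list, and the 3 genes nearest to the member of largest change. Of the 6 erythroid markers 2 had a row, summing to 0.0528 to 0.33 CPM. Alternatives were DESeq2 1.42.0, limma-voom (limma 3.58.1), scaling by RLE, by the upper quartile or by total counts, leaving the filter out, requiring 1 CPM in 3 libraries, blocking on the replicate number, and omitting each library in turn. The block leaves the comparison to the replicate numbers found in both groups. Coordinates and promoters are from RefSeq GRCm38.p6, in which all 10 members were matched. One promoter motif is not reported here. Python 3.11.15, pandas 2.3.3, numpy 2.4.6, scipy 1.17.1 and matplotlib 3.10.9 were used.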

Additional observations from a re-analysis of the deposited data

How the results depend on the processing

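The 5 rises among the 10 members (Steap1, Steap2, Steap4, Slc11a2 and Hmox1) and the fall of Tfrc kept their direction and their call under every alternative that tested them. Steap4 was left out where 1 CPM in 3 libraries was required. Its low controls mean that it passes the main filter only through its treated libraries, so its kept call adds no support. The number of members that fell was 2, against 4 after upper-quartile scaling or on total counts and 1 to 4 over the left-out libraries. Over all genes, 2069 fell, against 3124 on total counts. Iron storage and regulation genes had 2 rises, against 1 with DESeq2, after upper-quartile scaling, on total counts, with no filter, with a replicate block and without any one of the libraries, and 1 fall, against 2 after upper-quartile scaling and 3 on total counts. Iron-sulfur genes had 1 fall, against 3 after upper-quartile scaling, 5 on total counts, 0 with a replicate block and 0 to 1 over the left-out libraries. Falls among iron transport genes were 1 to 2 over the left-out libraries, and falls among NRF2 targets were 3, against 2 (without control replicate 4) to 5 (without treated replicate 1) over the left-out libraries and 5 under a replicate block.

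Signs turned in genes that had not passed the test. Slc40a1 had log2 0.206 with a replicate block and -0.426 to 0.079 over the left-out libraries, positive without control replicate 3. Ireb2 had 0.077 with a replicate block and -0.073 to 0.037 over the left-out libraries, positive without control replicate 3 and treated replicates 1 and 2. Fech had -0.041 after upper-quartile scaling, -0.059 on total counts and -0.010 to 0.027 over the left-out libraries, negative without control replicates 3 and 4. Nfe2l2 had -0.016 on total counts. Slc7a11 ran from -0.585 to 0.140 over the left-out libraries, positive without treated replicates 2 and 4. The cause was not tested.

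Replicate numbers 2 and 4 occur in both groups, and the main fit did not pair them because the labels state no pairing. Deviations from the group means correlated at 0.128 and -0.09 for these numbers, against -0.146 to 0.161 for unlike numbers. So few libraries cannot show whether they were paired. With the replicate number as a block, edgeR called 2133 genes higher and 1793 lower, Ftl1 was no longer called (adjusted p = 0.0585), and Steap3 (adjusted p = 0.0411) and Slc11a1 (adjusted p = 0.0313) were called lower. Replicate numbers found in a single group add nothing to the difference in that fit. Its fold changes therefore rest on replicates 2 and 4 of each group and not on all libraries. At a depth of 17490689 to 18678543 counts, the change of Steap4 is limited by its 2 control counts.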

Other observations

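Steap4 had the largest log2 fold change of the 10 genes, and the genes with the nearest profile over the 6 libraries (log2 CPM with a prior count of 2, each centred on its control mean, Euclidean distance) were Sp110, Tifa and Gm5431, at distances of 0.508, 0.524 and 0.626. Tifa, an adaptor of NF-kappaB signalling, had 27, 31 and 25 counts in the controls and 214, 184 and 248 in the treated libraries. Sp110, a nuclear body gene, went from 14.59 counts over the 3 controls to 142.39 over the 3 treated libraries, and Gm5431 from 21.71 to 169.65, both with counts that were not whole. Sp110, Tifa and Gm5431 had log2 fold changes of 3.31, 3.05 and 3.02, against 4.52 for Steap4. The profile of Steap4 rests on 2 control counts, and it was tested only through its treated libraries. How these distances move with the prior count was not tested.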
